A study of Mus musculus with 6 samples.

Results

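The subunits of oxidative phosphorylation that the nucleus encodes were examined in bulge epithelial cells grown with and without EGF. A gene was a member when its symbol, on a probe set listed with that symbol alone, followed the naming of the subunits of NADH dehydrogenase (Nduf with a, b, c, s or v and a number, without Ndufa4l2), succinate dehydrogenase (Sdha to Sdhd), the cytochrome bc1 complex (Uqcr), cytochrome c oxidase (Cox4 to Cox8 with a, b or c) or ATP synthase (Atp5). The rule used no measured value. It found 78 of the 18193 genes that could be read, of which 33 belong to complex I, 4 to complex II, 8 to complex III, 16 to complex IV and 17 to complex V. Ndufa4, named as a complex I subunit, was counted with complex IV, where the protein is found.

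Epithelial cells of the bulge, the stem cell region of the hair follicle, had been taken from the whisker follicles of mice 7 to 8 weeks of age. In each repeat the cells were split into NFFSE medium and NFFS medium and grown for 6 days in atelocollagen gel. Both media held Noggin, FGF-7, FGF-10 and a sonic hedgehog agonist at 50 ng/ml each, and NFFSE medium held EGF at 50 ng/ml in addition, so that the comparison concerns the presence of EGF. The experiment was done 3 times, with 1 array for each culture and therefore 3 NFFSE arrays and 3 NFFS arrays, which limits the precision of every value. The methods name C57BL/6N mice and transgenic lines without saying which gave the cells of the arrays, and each array averages over the stem cells and niche epithelial cells of the bulge without a sort.

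Oxidative phosphorylation takes place in the inner membrane of mitochondria. Complex I accepts electrons from NADH and complex II from succinate, ubiquinone carries them to complex III, and cytochrome c carries them on to complex IV, which reduces oxygen. Complexes I, III and IV pump protons across the membrane, and complex V, the ATP synthase, lets the protons back through its membrane part and makes ATP in its F1 head. In the hair follicle, resting bulge stem cells are known for their glycolytic metabolism.

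The values are the authors' MAS5 signals, which summarize each probe set as 1 linear intensity. All arrays had been scaled to 1 trimmed mean, and the median signal was 59.7 ± 4.6 on the NFFSE arrays and 68.5 ± 2.1 on the NFFS arrays (SD, n = 3 each). That the cells were keratinocytes was borne out by markers, since all 8 keratinocyte markers of the bulge and basal layer were bright. Their summed signals were 119854 to 144222 in NFFSE, against 114214 to 134036 in NFFS. As a list for both places, these markers do not single out cells of the bulge. Of those, Krt14, Itga6 and Itgb4 were called higher in NFFSE without overlap of the arrays (adjusted p = 0.0032, 9.3e-05 and 5.9e-05), and 1 was called lower. Krt15, a keratin of bulge stem cells, fell to 5003, 6306 and 9574 on the NFFSE arrays, against 23092, 28288 and 28316 on the NFFS arrays (no overlap, limma, adjusted p = 7.6e-05). Markers of fibroblasts, melanocytes, leukocytes and endothelium had low signals. The summed signal of 7 fibroblast markers, of which Col1a2 and Thy1 were called lower in NFFSE, was 365 to 405 in NFFSE and 491 to 615 in NFFS. That of 5 melanocyte markers was 353 to 546 in NFFSE and 426 to 565 in NFFS, that of 5 leukocyte markers 265 to 367 in NFFSE and 304 to 380 in NFFS, and that of 5 endothelial markers 225 to 291 in NFFSE and 188 to 276 in NFFS, with no call. None of these markers was listed at 0, and their part in the results was not tested. In 1 measure of RNA integrity the media differed without overlap. The log2 signal of the 3' probe set of Gapdh minus that of its 5' probe set was -0.37 ± 0.011 in NFFSE and -0.62 ± 0.017 in NFFS (SD, n = 3 each, two-sided exact permutation test, p = 0.1, the smallest that 3 against 3 arrays allow), whereas the same measure of Actb was 0.27 ± 0.019 in NFFSE and 0.33 ± 0.059 in NFFS (SD, n = 3 each, exact p = 0.3). Its part in the results below was not tested.

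Most members gave strong signals. The mean over the 6 arrays placed 67 of the 78 at or above the 90th percentile of all genes, a comparison between probe sets of different brightness and therefore only a rough one. Of the others, 5 were dim (both means below the 40th percentile of the genes' means), namely Ndufb4 and the complex IV members Cox6a2, Cox7a1, Cox7b2 and Cox8b. A low signal belongs to the probe set read, and whether the transcript itself was scarce was not tested.

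With EGF, 7 of the 78 members were higher and 1 was lower. They were the complex I subunits Ndufv3, Ndufs1 and Ndufv1, the complex III subunits Uqcrfs1 and Uqcrc1 and the ATP synthase subunits Atp5d and Atp5b, all by 1.25-fold to 1.56-fold, and the complex IV isoform Cox6b2, which fell to 0.55 of its NFFS level. The other 70 did not pass an adjusted p of 0.05 (limma on log2 signals of all 18193 genes, Benjamini-Hochberg adjustment). These shares, 8.97% higher and 1.28% lower, stand beside 11.0% of all genes called higher and 15.2% called lower, and beside 23.4% and 15.5% among the 1820 genes at or above the 90th percentile of mean signal. In these bulk samples a change in the share of cells that express a gene and a change in its RNA per cell cannot be told apart. The members' median log2 difference (NFFSE minus NFFS) was 0.12 with quartiles of -0.055 and 0.24, against -0.011 for all genes and 0.10 for the genes at or above the 90th percentile, and 48 of the 78 differences were positive.

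The complexes had different medians. Complex III had a median log2 difference of 0.19 with all 8 members positive, complex IV 0.17 with 11 of 16, complex V 0.16 with 13 of 17, complex I -0.017 with 15 of 33 and complex II -0.11 with 1 of 4. On 16 members every NFFSE array lay above every NFFS array, and on 7 every NFFSE array lay below, which is 20.5% and 8.97% of the members beside 18.5% and 22.0% of all genes and 34.8% and 21.8% of the genes at or above the 90th percentile of mean signal.

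**Figure D1:**
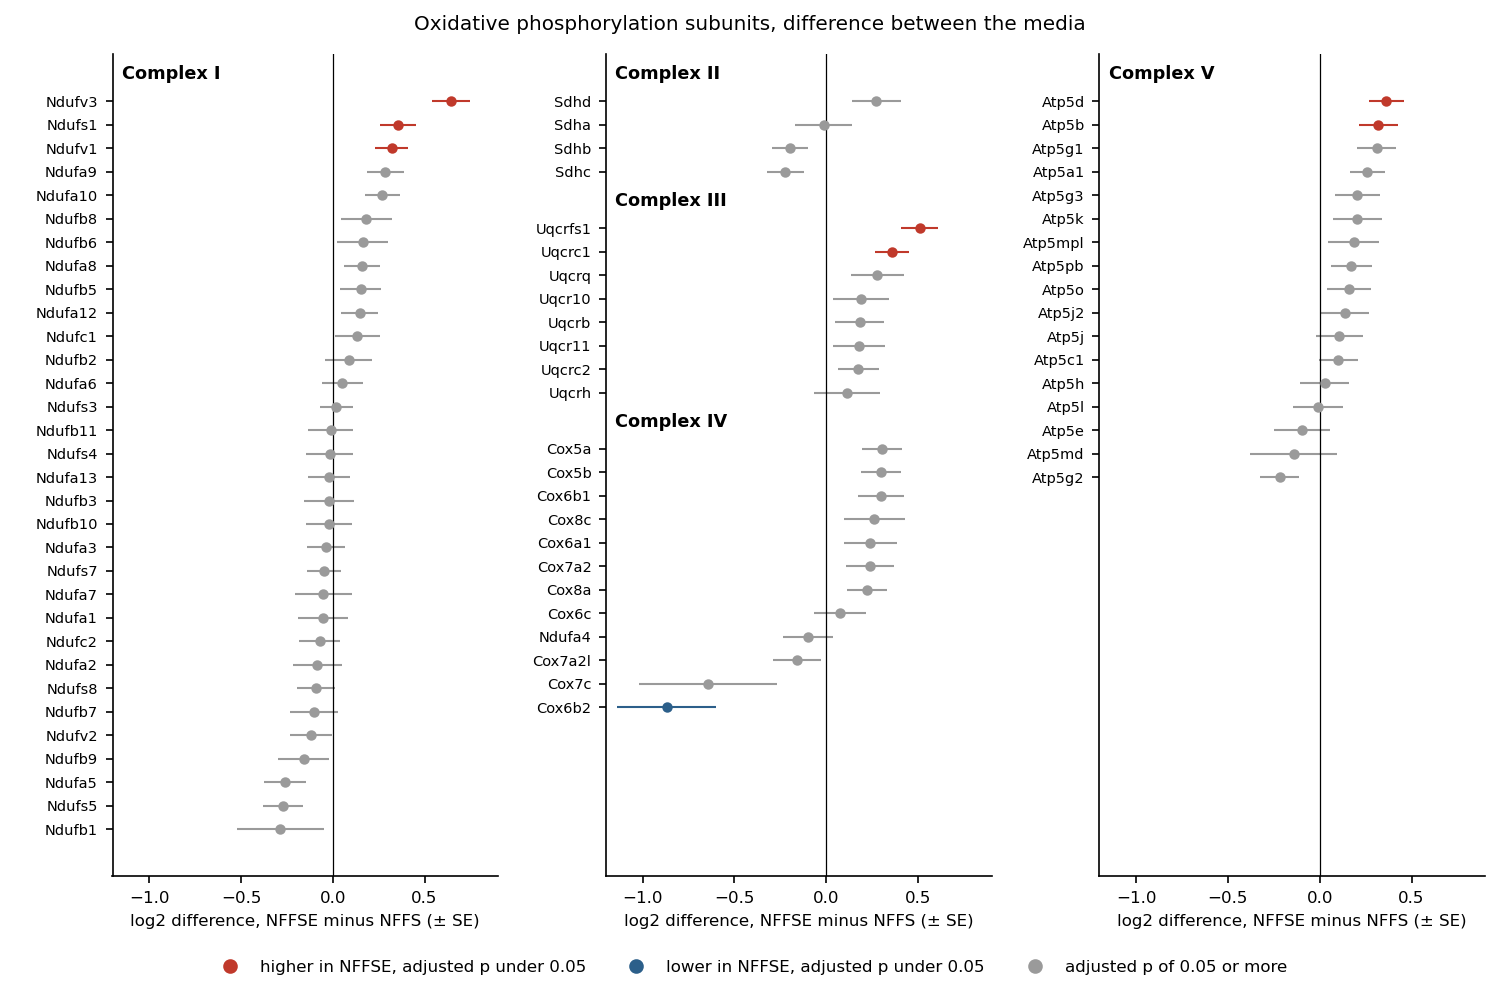
Log2 difference (NFFSE minus NFFS, horizontal axis) of each of the 73 members that were not dim, with the standard error of the limma fit as bars, grouped by complex and ordered by size. Colored points passed an adjusted p of 0.05: 7 members to the right of 0, led by Ndufv3 and Uqcrfs1, and Cox6b2 to the left, while the points of complex I lie on both sides of 0 and those of complex III all to the right.

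How many members were called rested on how the arrays were scaled and on single arrays. Centering each array on the median of its genes moved the median difference of all genes by about 0.19, to 0.18, and gave 14 members higher and 0 lower (16.6% and 10.9% of all genes), whereas quantile normalization, with a median of 0.068 for all genes, gave 3 higher and 11 lower (12.7% and 13.7%) and a median difference of -0.049 for the members. Relative to the median of all genes, the members lay 0.13 above it as deposited and after centering, and at -0.12 after quantile normalization, so that a direction of the members as a whole was not stable to the scaling. A filter on dim genes gave 13 members higher and 1 lower (18.7% and 25.7% of the 11525 genes left), and the fit with the repeats as a block 6 higher and 1 lower (11.9% and 16.3%). Without NFFS replicate 2, 16 members were higher and 0 lower (11.5% and 14.9% of all genes). Without NFFS replicate 3 or NFFSE replicate 2, 2 were higher, without NFFSE replicate 1 or 3, 3 were higher, and without NFFS replicate 1, 6 were higher, with 0 or 1 lower each time (7.71% to 9.98% of all genes higher and 11.7% to 13.6% lower).

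**Figure D2:**
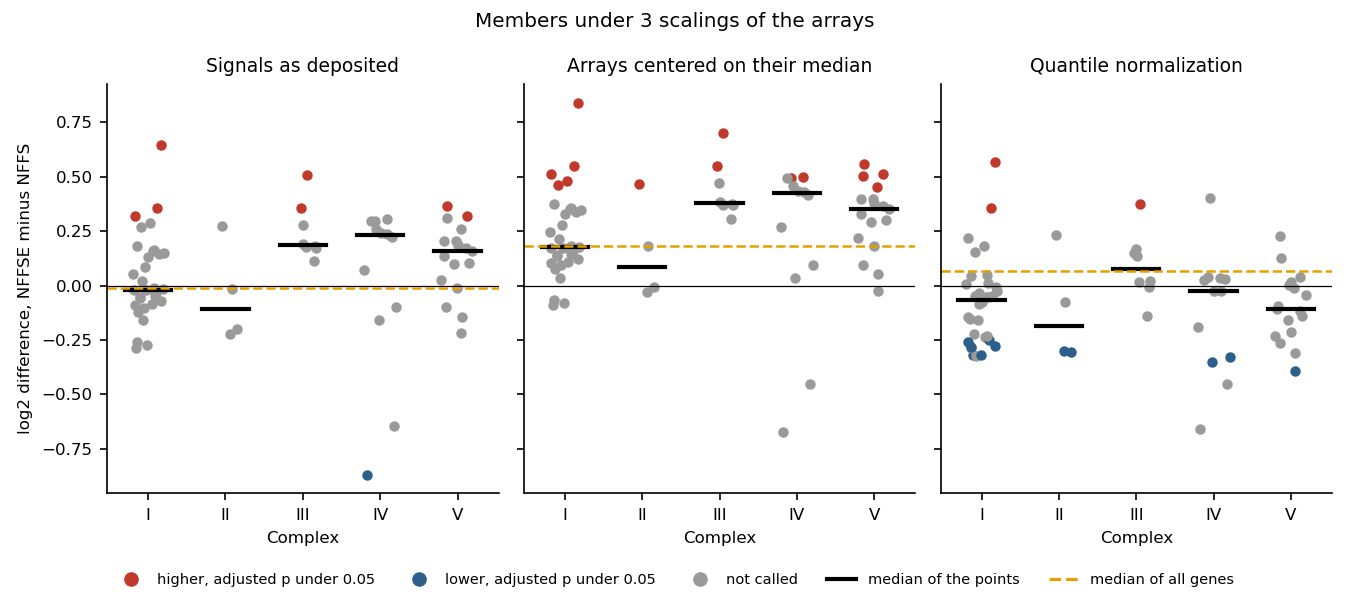
Log2 difference (NFFSE minus NFFS, vertical axis) of the 73 members that were not dim, by complex, with the signals as deposited, centered on each array's median or quantile normalized. Black bars are medians of the points shown, dashed lines the median of all genes, and colored points passed an adjusted p of 0.05. The same members give 7, 14 and 3 points called higher and 1, 0 and 11 called lower from left to right.

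Single arrays stood apart for most members. NFFS replicate 2 gave the highest NFFS signal for 66 of the 78 members, with a median deviation of 0.20 on the log2 scale from the mean of the NFFS arrays, and NFFS replicate 1 gave the lowest for 68, with a median deviation of -0.18. For the genes at or above the 90th percentile of mean signal these deviations were 0.065 and -0.064. The NFFSE arrays lay closer together, with median deviations of -0.039, 0.0010 and 0.062 for replicates 1, 2 and 3. Within the repeats, the median difference of the members was 0.24 in the first (65 of 78 positive), -0.096 in the second (27 of 78) and 0.18 in the third (56 of 78).

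**Figure D3:**
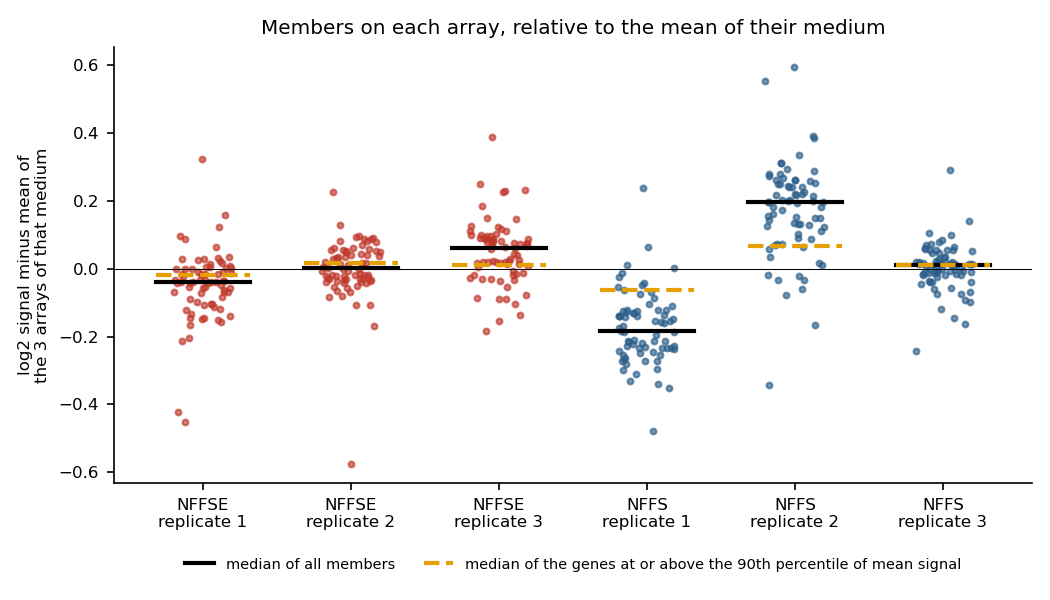
Log2 signal of each of the 73 members that were not dim minus the mean of the 3 arrays of the same medium (vertical axis), for the NFFSE arrays on the left and the NFFS arrays on the right. Black lines are medians over all 78 members and dashed lines medians over the 1820 genes at or above the 90th percentile of mean signal. The members lie low on NFFS replicate 1 and high on NFFS replicate 2, by more than the dashed lines.

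Complex I feeds electrons into the chain. Its core subunits carry the flavin and the iron-sulfur clusters, and its accessory subunits surround this core. Ndufv3, an accessory subunit at the NADH-binding tip, had the largest difference among the members called higher. Its signals were 5380, 6168 and 6360 in NFFSE, against 3628, 3964 and 3837 in NFFS. The arrays did not overlap, with a log2 difference of 0.65 ± 0.10 (SE), or 1.56-fold (limma, adjusted p = 0.0011). The difference passed the threshold under all 16 alternatives, both other scalings included, with adjusted p from 0.00063 to 0.027.

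Ndufv1, the core subunit that binds NADH and FMN, gave 6095, 5998 and 5828 in NFFSE, against 4796, 4680 and 4881 in NFFS. Ndufs1, the large iron-sulfur core subunit next to it, gave 2872, 3048 and 2657 in NFFSE, against 2249, 2247 and 2202 in NFFS. In both genes the lowest NFFSE array lay well above the highest NFFS array. The log2 differences were 0.32 ± 0.09 for Ndufv1 (adjusted p = 0.024) and 0.35 ± 0.10 for Ndufs1 (adjusted p = 0.022), and after quantile normalization Ndufs1 was still called and Ndufv1 was not (adjusted p = 0.07). Without single arrays the adjusted p of Ndufv1 reached 0.093 and that of Ndufs1 0.11, both without NFFSE replicate 2, and the calls held under 9 and 12 of the 16 alternatives. Ndufv1 had 3 probe sets above background. Those other than the brightest gave log2 differences of 0.22 and 0.19, also without overlap. In limma over all probe sets their adjusted p was 0.13 and 0.18, against 0.03 for the brightest.

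The third flavoprotein subunit, Ndufv2, did not follow them. Its signals were 7239, 7290 and 7834 in NFFSE, against 6992, 9011 and 8414 in NFFS, with a log2 difference of -0.12 ± 0.12 (adjusted p = 0.52). Of the other core subunits, Ndufs3, Ndufs7 and Ndufs8 had log2 differences of 0.02, -0.05 and -0.09, and none passed the threshold. The core as a whole, 6 genes, had a median of -0.014 and the 27 accessory genes one of -0.017.

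Among the accessory subunits, Ndufa9 and Ndufa10 also lay above NFFS on every NFFSE array without passing the threshold. Ndufa9 gave 6045, 5738 and 5917 in NFFSE, against 4424, 5224 and 4889 in NFFS (log2 difference of 0.29 ± 0.10, adjusted p = 0.061), and Ndufa10 had a log2 difference of 0.27 ± 0.10 (adjusted p = 0.067). In the other direction Ndufs5 gave 3647, 3573 and 3510 in NFFSE, against 3774, 4700 and 4541 in NFFS (log2 difference of -0.27 ± 0.11, adjusted p = 0.099), and Ndufa5 had a log2 difference of -0.26 ± 0.11 (adjusted p = 0.13). The 2 sets of arrays did not overlap in any of these genes. Ndufs5 and Ndufa5 sit in the membrane arm and the matrix arm of the enzyme.

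Since scaling acts on a whole array, members were also set against the median of the other members of their complex on the same array, as a description. Ndufv3 lay at -0.19, -0.056 and 0.096 on this log2 scale in NFFSE, against at -0.54, -0.66 and -0.57 in NFFS, a difference of 0.54 that was 0.58 after quantile normalization. For Ndufs1 the difference was 0.23 and for Ndufv1 0.20. Ndufs5 lay at -0.75, -0.84 and -0.81 in NFFSE, against at -0.49, -0.41 and -0.32 in NFFS, a difference of -0.40. In these 4 genes the arrays of the media did not overlap, so that the levels of these subunits relative to the rest of complex I differed between the media on every array. This was not particular to them. Ndufa9 also lay above without overlap, and Ndufa2, Ndufa3, Ndufa5, Ndufa13, Ndufb7, Ndufb9, Ndufc2, Ndufs8 and Ndufv2 lay below. The differences of Ndufa5, Ndufb9 and Ndufv2 were -0.38, -0.37 and -0.33. The measure was not taken over all genes.

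Complex II is both the succinate dehydrogenase of the citric acid cycle and an entry of electrons into the chain. None of its 4 subunits passed the threshold. Sdhb, the iron-sulfur subunit, gave 4996, 5076 and 4861 in NFFSE, against 5252, 5976 and 5938 in NFFS (log2 difference of -0.20 ± 0.10, adjusted p = 0.18), and Sdhc, a membrane anchor, gave a log2 difference of -0.22 ± 0.10 (adjusted p = 0.15). All NFFSE arrays lay below all NFFS arrays in both genes, and both were called lower after quantile normalization. Sdhd, the other anchor, had a log2 difference of 0.27 ± 0.13 (adjusted p = 0.17), with NFFS replicate 2 among the NFFSE arrays. Sdha, the flavoprotein subunit, had a log2 difference of -0.01 ± 0.15 on its brightest probe set and one of 0.14 on the other probe set above background.

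Complex III was the complex in which every measured member had a positive difference with the signals as deposited, though after quantile normalization Uqcrb and Uqcrh stood at -0.0064 and -0.14, and in the repeat of replicate 2 only 2 of the 8 were positive, with a median of -0.050. Uqcrfs1, the Rieske iron-sulfur protein that takes electrons from ubiquinol, gave 8041, 8224 and 7873 in NFFSE, against 5368, 6242 and 5393 in NFFS. NFFS replicate 2 was the highest of the NFFS arrays and still lay below all NFFSE arrays. The log2 difference was 0.51 ± 0.10, or 1.42-fold (adjusted p = 0.004), and it passed the threshold under all 16 alternatives, with adjusted p from 0.0013 to 0.047. Uqcrc1, a core protein on the matrix side, gave 11382, 11732 and 11398 in NFFSE, against 8653, 9209 and 9108 in NFFS, which did not overlap (log2 difference of 0.36 ± 0.09, adjusted p = 0.017). After quantile normalization its log2 difference was 0.15 (adjusted p = 0.19). The call was also lost without any 1 NFFSE array and without NFFS replicate 3, with adjusted p from 0.052 to 0.081. It held under 10 of the 16 alternatives.

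**Figure D4:**
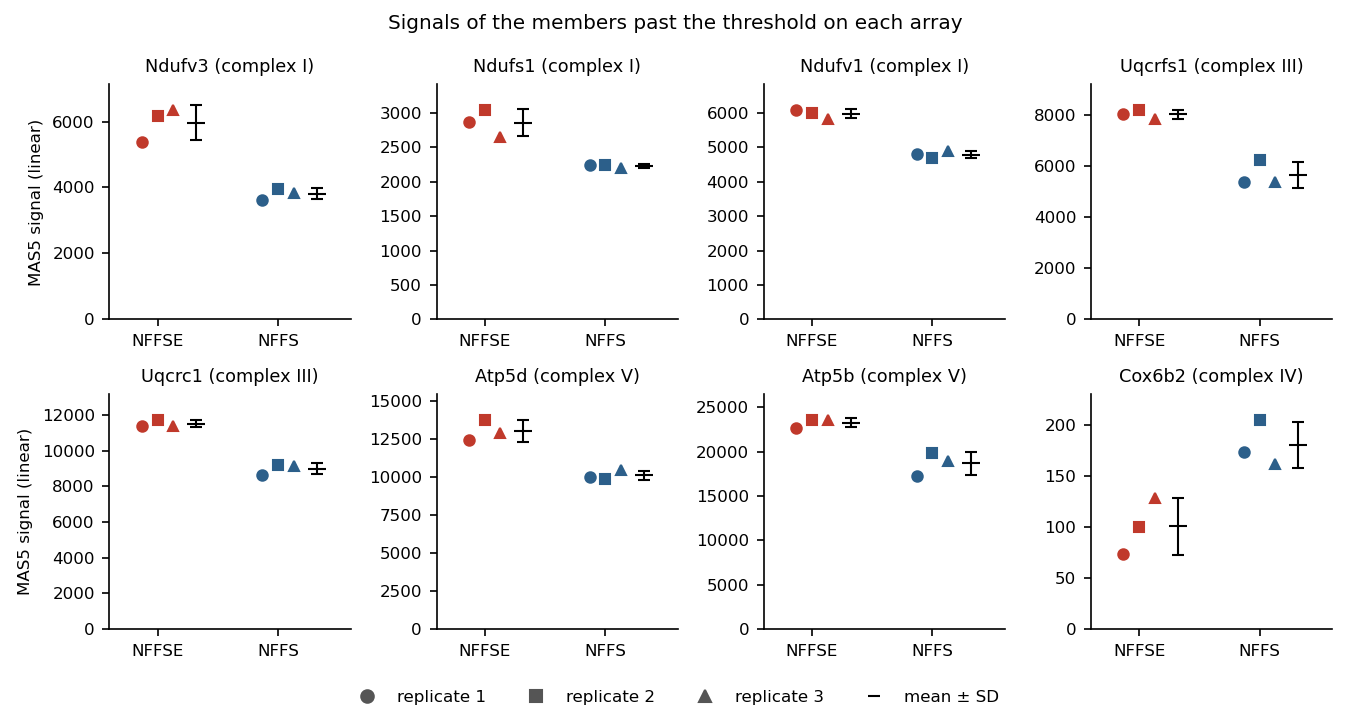
MAS5 signal (linear, vertical axis from 0) on each array for the 8 members past the threshold, NFFSE on the left and NFFS on the right of each panel, with the replicate as the symbol and the mean ± SD (n = 3) as bars. In the 7 members called higher all NFFSE points lie above all NFFS points, and in Cox6b2, whose signals reach at most 205, all lie below.

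The remaining complex III members, Uqcrc2, Uqcrb, Uqcrh, Uqcrq, Uqcr10 and Uqcr11, had log2 differences between 0.11 and 0.28 on their brightest probe sets, with adjusted p from 0.2 to 0.71. Uqcrh, the hinge protein by which cytochrome c1 meets cytochrome c, shows the spread behind these values, with 12441, 14128 and 16803 in NFFSE, against 10688, 17313 and 12592 in NFFS. NFFS replicate 2 was its highest array of all. Uqcr10 had 3 probe sets above background, and its brightest gave a log2 difference of 0.19. The others gave 0.72 and 0.54 without overlap of the arrays (limma over all probe sets, adjusted p = 0.0094 and 0.038). For Uqcrq the other probe set above background stood at -0.025. Relative to the other members of complex III on the same array, Uqcrfs1 lay at -0.021, -0.026 and -0.20 in NFFSE, against at -0.30, -0.56 and -0.44 in NFFS, a difference of 0.35 (0.38 after quantile normalization). Uqcrq also lay above without overlap on this measure, with a difference of 0.12.

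Complex IV has subunits that exist as isoforms of different tissues. In this complex 1 member was called. Cox6b2, the isoform of subunit 6B known from testis, gave 73.3, 101 and 129 in NFFSE, against 173, 205 and 162 in NFFS. All NFFSE arrays lay lower, with a log2 difference of -0.87 ± 0.27, or 0.55-fold (adjusted p = 0.038), but the signals are low and the call held under only 6 of the 16 alternatives. It was lost under centering (adjusted p = 0.095) and quantile normalization (adjusted p = 0.093), with a floor under low signals (adjusted p = 0.078), and without NFFSE replicate 1 (adjusted p = 0.11) or 2 (adjusted p = 0.088) or any 1 NFFS array (adjusted p = 0.083, 0.11 and 0.067 without replicates 1, 2 and 3). Its widely expressed counterpart Cox6b1 gave 17918, 19441 and 20615 in NFFSE, against 13818, 17997 and 15519 in NFFS (log2 difference of 0.30 ± 0.12, adjusted p = 0.11).

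The isoforms known from heart and skeletal muscle were at or near background. Background was set at a signal of 22.7, the highest of 18 readings of control probe sets for a transcript that mouse cells lack. Cox8b was under it on all arrays, with 2.58 to 12.7 in NFFSE, against 1.93 to 10.9 in NFFS. Cox7a1 gave 10.2 to 22.6 in NFFSE, against 12.2 to 24.3 in NFFS, and Cox6a2 gave 6.26 to 102 in NFFSE, against 51.7 to 78.5 in NFFS. Cox7b2, known from testis, was under background on all arrays as well, so that no fold is given for it. Of 10 markers of striated muscle, with summed signals of 381 to 441 in NFFSE and 241 to 352 in NFFS, 8 were dim, and Myh1 was the only one called (73.2, 38.7 and 91.7 in NFFSE, against 20.6, 23.9 and 25.8 in NFFS, adjusted p = 0.039).

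Most of the widely expressed subunits were bright, with log2 differences between 0.22 and 0.30, whereas that of Cox6c was 0.07 ± 0.14 with overlapping arrays (adjusted p = 0.77). Cox5a, 1 of the subunits that stay with the early assembly of the catalytic subunit 1, gave 20203, 19912 and 20939 in NFFSE, against 14951, 18017 and 16584 in NFFS (log2 difference of 0.30 ± 0.11, adjusted p = 0.065). Cox5b, Cox6a1, Cox7a2 and Cox8a had log2 differences of 0.30, 0.24, 0.24 and 0.22, with adjusted p from 0.074 to 0.28, and in Cox5b and Cox8a, as in Cox5a, the arrays did not overlap. Cox8c, the testis isoform of subunit 8, gave 431, 391 and 445 in NFFSE, against 323, 314 and 430 in NFFS (adjusted p = 0.31). After quantile normalization no complex IV member was called higher. Further probe sets above background gave the same sign, with log2 differences of 0.25 to 0.35 for the 4 of Cox5b, 0.21 to 0.30 for the 3 of Cox5a and 0.22 to 0.25 for the 3 of Cox8a.

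Besides Cox6b2 and the dim Cox6a2, 3 complex IV members had negative values. Cox7c gave low signals of 41.6, 66.6 and 66.6 in NFFSE, against 69.7, 134 and 75.3 in NFFS, without overlap (log2 difference of -0.65 ± 0.38, adjusted p = 0.26). Cox7a2l, described as a factor of supercomplexes of complex III with complex IV, gave 7254, 7929 and 9188 in NFFSE, against 8278, 10495 and 8475 in NFFS (log2 difference of -0.16 ± 0.13, adjusted p = 0.43). Ndufa4 gave 11646, 10938 and 10320 in NFFSE, against 9880, 14077 and 11617 in NFFS (log2 difference of -0.10 ± 0.13, adjusted p = 0.66). In Cox7a2l and Ndufa4 the arrays overlapped, and both were called lower after quantile normalization only.

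Complex V is made of the F1 head, which holds the catalytic sites, and a membrane part with a ring of c subunits. The calls were both in F1. Atp5b, the catalytic beta subunit, gave 22698, 23523 and 23621 in NFFSE, against 17293, 19820 and 18929 in NFFS. All NFFSE arrays lay above, with a log2 difference of 0.32 ± 0.10 (adjusted p = 0.046), and the call was lost with the repeats as a block (adjusted p = 0.051), after quantile normalization (log2 difference of 0.04, adjusted p = 0.78) and without any 1 array other than NFFS replicate 2, with adjusted p from 0.097 to 0.15. It was also lost without an intensity trend and with the mean of all probe sets, and held under 7 of the 16 alternatives. In limma over all probe sets its adjusted p was 0.06. Atp5d, the delta subunit of the central stalk, gave 12419, 13789 and 12884 in NFFSE, against 10031, 9892 and 10446 in NFFS (log2 difference of 0.36 ± 0.10, adjusted p = 0.019). After quantile normalization its log2 difference was 0.12 (adjusted p = 0.35), and the call was lost without NFFSE replicate 2 (adjusted p = 0.1), NFFSE replicate 3 (adjusted p = 0.058) or NFFS replicate 3 (adjusted p = 0.051). The call of Atp5d held under 11 of the 16 alternatives.

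Atp5a1, the alpha subunit that alternates with beta in the head, gave 17167, 17812 and 17131 in NFFSE, against 13887, 14671 and 14991 in NFFS (log2 difference of 0.26 ± 0.10, adjusted p = 0.078). The arrays did not overlap on this probe set, its brightest. Its other probe sets above background gave 0.15 and 0.050 (limma over all probe sets, adjusted p = 0.46 and 0.78). The latter read 12350 to 12510 in NFFSE, against 11451 to 12578 in NFFS, with overlap. The gamma and epsilon subunits of the stalk, Atp5c1 and Atp5e, had log2 differences of 0.10 and -0.10 and overlapped. The F1 genes, 5 in number, had a median of 0.26 and the other 12 genes of complex V one of 0.15.

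The c subunit is made from 3 genes that encode the same mature protein with different targeting peptides, and these genes did not have the same sign. Atp5g1 gave 5866, 5190 and 4784 in NFFSE, against 3997, 4466 and 4291 in NFFS (log2 difference of 0.31 ± 0.11, adjusted p = 0.061). Atp5g3 gave 19539, 22858 and 22615 in NFFSE, against 16472, 20847 and 19188 in NFFS (log2 difference of 0.21 ± 0.12, adjusted p = 0.28). Atp5g2 gave 8460, 8311 and 8592 in NFFSE, against 8935, 10905 and 9763 in NFFS (log2 difference of -0.22 ± 0.11, adjusted p = 0.17). The arrays did not overlap in Atp5g1 and Atp5g2, which lay on opposite sides, and Atp5g2 was below on all NFFSE arrays also relative to the other complex V members, at -0.52, -0.68 and -0.62 in NFFSE, against -0.19, -0.24 and -0.21 in NFFS. This was not particular to Atp5g2. On that measure Atp5c1, Atp5e and Atp5h also lay below without overlap, and Atp5b lay above. In each of the 3 genes only 1 probe set lay above background on all arrays.

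Promoters were available from RefSeq (GRCm38.p6, 250 bases before to 50 after the start) for 66 of the 78 members. NRF1 and the ETS factor GABP (NRF2) are known activators of respiratory chain genes, and their cores were searched on both strands as GCGCANGCG and CCGGAAG. A gene counted when any of its promoters held the core. The NRF1 core was found for 18 of the 66 members (27.3%), beside 11.4% of the 14452 tested genes with a promoter. Among the 9358 of those genes that were not dim the share was 15.3%, and among all genes with a listed promoter 7.03%. The ETS core was found for 17 members (25.8%), beside 15.0%, 20.3% and 9.93% of the same sets of genes. By complex, the NRF1 core was found for 7 of 15 members of complex V and 1 of 13 of complex IV. Of the members called higher, 6 had a promoter, of which Uqcrc1 alone held the NRF1 core and 0 the ETS core. A match is a run of letters and not a measured site. Shown are Uqcrc1 and Atp5g2, which have opposite signs and both hold the NRF1 core in its palindromic form, which counts once on each strand, and Ndufv3 and Uqcrfs1, which passed under every alternative and hold neither. Capitals mark the NRF1 core, and each promoter reads 5′ to 3′ on the strand of its gene.
Uqcrc1, chr9:108936398-108936697, forward strand: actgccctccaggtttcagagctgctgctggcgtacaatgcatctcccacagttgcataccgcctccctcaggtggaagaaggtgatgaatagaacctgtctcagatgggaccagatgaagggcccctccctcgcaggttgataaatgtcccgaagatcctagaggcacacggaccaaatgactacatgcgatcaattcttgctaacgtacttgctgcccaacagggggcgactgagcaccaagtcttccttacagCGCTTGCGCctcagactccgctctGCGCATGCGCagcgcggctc
Atp5g2, chr15:102670998-102671297, reverse strand: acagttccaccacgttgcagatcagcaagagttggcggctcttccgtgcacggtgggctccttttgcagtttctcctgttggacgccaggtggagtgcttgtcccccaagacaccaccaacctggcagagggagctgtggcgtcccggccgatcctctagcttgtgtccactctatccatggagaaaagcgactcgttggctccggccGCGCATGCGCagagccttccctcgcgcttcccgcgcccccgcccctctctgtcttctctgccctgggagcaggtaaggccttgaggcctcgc
Ndufv3, chr17:31519865-31520164, forward strand: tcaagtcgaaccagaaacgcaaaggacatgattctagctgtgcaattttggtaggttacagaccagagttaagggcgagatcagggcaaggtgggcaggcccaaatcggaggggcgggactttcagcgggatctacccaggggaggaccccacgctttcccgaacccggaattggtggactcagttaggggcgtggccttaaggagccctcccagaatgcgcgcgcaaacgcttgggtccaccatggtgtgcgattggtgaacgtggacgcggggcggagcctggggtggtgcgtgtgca
Uqcrfs1, chr13:30545267-30545566, reverse strand: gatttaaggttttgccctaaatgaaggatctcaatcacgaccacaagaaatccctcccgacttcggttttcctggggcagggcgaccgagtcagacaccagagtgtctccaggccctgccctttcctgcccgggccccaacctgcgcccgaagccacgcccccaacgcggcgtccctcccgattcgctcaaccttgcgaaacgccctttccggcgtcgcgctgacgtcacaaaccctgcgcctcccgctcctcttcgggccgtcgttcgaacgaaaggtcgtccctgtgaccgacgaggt

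Uqcrc1 also holds a second, single NRF1 core. The shared run is the same in Uqcrc1 and Atp5g2, with signals of 11382 to 11732 in NFFSE, against 8653 to 9209 in NFFS for Uqcrc1 and of 8311 to 8592 in NFFSE, against 8935 to 10905 in NFFS for Atp5g2.

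Outside the naming rule, 8 further genes of the chain were measured, of which 3 were called higher and 0 lower, beside 11.0% and 15.2% of all genes. After quantile normalization 2 were higher and 1 lower. Without an intensity trend 2 were higher, and with the methods' t-test 1 was. Cyc1, the cytochrome c1 of complex III, gave 7956, 7995 and 7522 in NFFSE, against 4850, 5855 and 5342 in NFFS (adjusted p = 0.0029), and Cycs, cytochrome c itself, gave 17516, 16272 and 18291 in NFFSE, against 10460, 14013 and 13104 in NFFS (adjusted p = 0.019). Neither Cyc1 nor Cycs overlapped between the media. Ndufa4l2, a relative of Ndufa4 known to be induced by hypoxia, gave 960, 2108 and 2437 in NFFSE, against 92.4, 13.4 and 111 in NFFS, 1 of which was under background (adjusted p = 0.00042). The hypoxia-linked isoform Cox4i2 stayed dim with 49.1, 34.8 and 75.6 in NFFSE, against 52.2, 74.6 and 51.6 in NFFS (adjusted p = 0.77). The 1 subunit of the mitochondrial genome that was measured, ND5 of complex I, gave 16228, 14331 and 16048 in NFFSE, against 18760, 27627 and 18850 in NFFS (log2 difference of -0.46, adjusted p = 0.053), where NFFS replicate 2 stood apart.

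Of 46 assembly factors, 2 were higher and 6 lower, beside 11.0% and 15.2% of all genes, with a median log2 difference of -0.083. Without NFFSE replicate 2 the list had 2 lower and without NFFSE replicate 3 it had 3. Cox17, which carries copper to complex IV, gave 4521, 4700 and 4993 in NFFSE, against 2036, 3245 and 2116 in NFFS (adjusted p = 0.0016), and Coa7, also of complex IV, was higher (adjusted p = 0.015). Sdhaf4, which assists Sdha, gave 948, 953 and 1072 in NFFSE, against 1792, 2070 and 1714 in NFFS (adjusted p = 0.00028), and Uqcc3 of complex III gave 698, 680 and 642 in NFFSE, against 1289, 1271 and 1104 in NFFS (adjusted p = 0.00039). Ttc19 of complex III and Ndufaf7 of complex I were lower as well, as were Atpaf1 and Tmem70 of complex V. After centering 8 of the list were higher and 3 lower, and after quantile normalization 6 were higher and 4 lower.

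The lists that surround the chain also held genes called higher. Their counts stand beside 11.0% of all genes called higher and 15.2% called lower. Among the genes at or above the 90th percentile of mean signal these shares were 23.4% and 15.5%. Of 17 genes of pyruvate dehydrogenase and the citric acid cycle, 7 were higher and 0 lower (median log2 difference of 0.27), and after centering and quantile normalization 11 and 5 were higher. Dlat, a subunit of pyruvate dehydrogenase, gave 2148, 1990 and 1776 in NFFSE, against 1189, 1009 and 862 in NFFS (adjusted p = 0.00058), and the other 6 were Ogdh and Dlst of the oxoglutarate dehydrogenase, Idh3a, Idh3g, Pdhb and Mdh2. Of 9 genes that exchange nucleotides and phosphate, 7 were higher and 0 lower (median of 0.38). Among them were the channels Vdac1, Vdac2 and Vdac3, the carriers Slc25a3 and Slc25a5 and also the dim Ucp1. After quantile normalization 4 were higher and 1 lower. Without any 1 NFFSE array or NFFS replicate 1, 3 of them were higher, and without NFFS replicate 3, 4 were. Without an intensity trend 3 were higher, with the mean of all probe sets 4, and with a floor under low signals or the methods' t-test 5. The filter on dim genes left 8 of the list, of which 6 were higher. Ckmt1, the mitochondrial creatine kinase, gave 4750, 4592 and 4637 in NFFSE, against 1512, 1647 and 1057 in NFFS (adjusted p = 2.8e-05), and Ucp1, the uncoupling protein of brown fat, was dim with 25.9 to 38.9 on the NFFSE arrays and 1.90 to 12.4, all under background, on the NFFS arrays. Of the other brown fat markers, Cidea was higher as well (adjusted p = 0.046), but neither Ucp1 nor Cidea was called without any 1 NFFSE array or without NFFS replicate 1. Dio2, the bright member of that list, fell to 1002, 2840 and 2580 in NFFSE, against 7595, 6753 and 5135 in NFFS (adjusted p = 0.0036), and the summed signal of the 4 markers was 1135 to 2988 in NFFSE and 5208 to 7621 in NFFS, whose part in the results was not tested. Of 16 genes of protein import and the inner membrane, 4 were higher (Tomm40, Hspa9, Hspd1 and Immt) and 0 lower, with a median of 0.29. After centering 10 were higher, after quantile normalization 4 and without NFFS replicate 2, 9. Without an intensity trend, or without any 1 array other than NFFS replicate 2, 3 were higher.

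The regulators of mitochondrial biogenesis were called in both directions, with 2 of 15 higher and 3 lower, near the shares of all genes called (11.0% and 15.2%). Esrra, the nuclear receptor ERR alpha, gave 888, 672 and 1056 in NFFSE, against 382, 448 and 402 in NFFS (adjusted p = 0.0012), and its coactivator Ppargc1b gave 181, 134 and 163 in NFFSE, against 77.4, 41.2 and 22.0 in NFFS (adjusted p = 0.0082). Tfam, which packs and transcribes mitochondrial DNA, fell to 1280, 1184 and 1130 on the NFFSE arrays, against 1853, 2127 and 2006 on the NFFS arrays (adjusted p = 0.00061). Tfb2m, a mitochondrial transcription factor, and Ssbp1, which binds single-stranded mitochondrial DNA, were lower too (adjusted p = 0.011 and 0.04). Arrays of the media did not overlap in any of these 5 genes. Ppargc1a lay near background with 14.6 to 37.8 in NFFSE, against 14.5 to 27.2 in NFFS.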

How the data were processed

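RNA of 6 cultures was hybridized to Affymetrix mouse genome arrays, 3 of NFFSE and 3 of NFFS medium. The deposited values are intensity values on a linear scale that the authors computed with MAS5, per the submitters' processing notes (no version is given in the sources used here), scaled to the same trimmed mean on each array, which was checked on the values. Scanner values and detection calls were not used here. Control probe sets were left out, 34945 probe sets with 1 symbol were kept, and each of 18193 genes was read from its brightest probe set over all arrays. For the 78 members there were 161 probe sets. Of these, 141 lay above background on all arrays, and of the 43 members with several such sets 10 had differences of both signs. Of the members, 16 were read from _x_at or _s_at sets, which can take up signal of related genes.

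NFFSE was compared with NFFS in limma 3.58.1 (R 4.3.3) on log2 signals, with moderated variances and an intensity trend. P-values were adjusted by Benjamini-Hochberg over every gene read, and 0.05 was the threshold. The fit was also run on simulated data, whose outcome is not given here and on which no result rests. SDs refer to linear signals and standard errors to log2 differences. The members, gene lists, motifs and alternatives were chosen with earlier results of these data known. Named were, by a fixed rule, up to 4 called members per complex and direction, main core subunits, isoform sets and up to 4 genes per list with the smallest p, and 2 genes of that rule were not analysed here. Others were named after their values were seen. Arrays with the same replicate number were treated as pairs, because the series design splits each repeat into both media (correlation of deviations 0.066, 0.042 and 0.037 over all genes, 0.14, 0.14 and 0.24 over the members), and the main fit did not use the pairs. Whether repeats used separate mice is not stated, so p-values measure the spread between these cultures. Alternatives were median centering, quantile normalization, the mean of all probe sets, leaving out _x_at and _s_at sets, an offset of 16, a floor at background, a filter on dim genes, no trend, the methods' t-test (with the same adjustment), the replicate block and leaving out each array.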

Additional observations from a re-analysis of the deposited data

How the results depend on the processing

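Against 7 members higher and 1 lower in NFFSE, median centering gave 14 and 0, quantile normalization 3 and 11, a filter on dim genes 13 and 1, no intensity trend 2 and 0, the mean of all probe sets 5 and 2, probe sets without _x_at and _s_at 8 and 2, a floor under low signals 10 and 0, the methods' t-test after adjustment 8 and 0, and the replicate block, which takes the repeats as pairs, 6 and 1 (Atp5b was no longer called, and no other call changed). Leaving out 1 array gave 2 to 16 higher and 0 to 1 lower. The median log2 difference of the members was 0.12, and 0.31 after centering and -0.049 after quantile normalization. By complex, centering gave 0.18 for complex I, 0.087 for II, 0.38 for III, 0.36 for IV and 0.35 for V, quantile normalization -0.055 for I, -0.19 for II, 0.077 for III, 0.00044 for IV and -0.11 for V, and the mean of all probe sets -0.039 for II. Without 1 array the median ran from 0.020 to 0.21 for all members, from -0.10 to 0.10 for complex I, from -0.18 to -0.052 for II, from 0.085 to 0.35 for III, from 0.032 to 0.28 for IV and from 0.051 to 0.26 for V. Of 412 values of named members under alternatives, 347 kept direction and side of the threshold, 41 lost the call, 15 gained one, 9 others moved and 0 reversed. The cause of these shifts was not tested. Limits of the values include the number of arrays, the choice of scaling, the spread of the NFFS arrays and, for the dim members, signals at background.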
